A study of Sus scrofa with 6 samples.

Results

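The extracellular matrix genes and matrix receptors described here are the collagens, laminins, integrins, nidogens, fibulins and fibrillins, with fibronectin (FN1). The rule that chose them uses gene symbols: a probe set counted where the platform annotation gave it a single symbol of one of these families, and each gene was represented by its brightest probe set over the 6 arrays. The rule found 35 genes, measured by 65 probe sets, of 6765 genes with a symbol of their own among 23999 probe sets. They comprised 15 collagen genes, the laminin chains LAMB1, LAMB2 and LAMC1, the nidogen NID2, the glycoproteins FN1, FBN1 and FBLN1, 7 integrin alpha chains, 5 integrin beta chains and ITGB1BP2, a muscle protein that binds an integrin and is not itself one. HSPG2, NID1, COL1A1, COL4A1, COL6A1, COL18A1 and the laminin alpha chains were not analysed here.

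Collagens are built from 3 chains, and their families differ in what they build: fibrillar collagens form the fibres of connective tissue, collagen IV forms the sheet of basement membranes together with laminin and nidogen, and collagen VI forms beaded filaments around cells. Integrins are cell surface receptors, each a pair of an alpha and a beta chain, that bind these proteins and link them to the cytoskeleton. In the ovary a basement membrane separates the granulosa cells inside the follicle from the theca and stroma outside, and this membrane is rebuilt as the follicle enlarges.

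RNA came from ovarian follicles of gilts, young female pigs, before puberty, isolated by morphology and diameter, and was measured on a single-channel Affymetrix porcine array. The titles name 3 stages, primordial, middle and last, with 2 arrays each described as biological replicates. No treatment or genetic change is named in the labels. Nothing in the labels says whether replicates came from separate animals, so p-values reflect no more than the scatter of these samples, which may be technical. The stage names rest on the titles, because a second description attached to each sample calls all 6 primordial. Below, the 2 arrays of a stage are called the primordial-labelled, middle and last pair. Median signal over the probe sets was 119.0 and 124.7 in the primordial-labelled pair, 169.9 and 165.2 in the middle pair and 140.2 and 150.2 in the last pair, and the small number of arrays limits the precision.

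Markers of the follicle's cell types differed between the stages, in part against what the titles name. Over 11 of 12 listed oocyte genes found on the array, such as the zona pellucida glycoproteins ZP2, ZP3 and ZP4, the summed signal was 466 to 497 in the primordial-labelled pair, 20111 to 21840 in the middle pair and 884 to 887 in the last pair. In the primordial-labelled pair the sum of these defining transcripts of the oocyte was thus lowest. Between the last and primordial-labelled pairs 4 of the 11 were called, all higher in the last pair. H1FOO and NPM2 had lower means in the last pair. The aromatase gene CYP19A3, listed as a granulosa gene, had a mean signal of 9934 in that pair. CYP19A1, another aromatase gene of the same list, had no array above 52.2 and was not called in any comparison. Which of these genes better reflects aromatase of the granulosa was not tested. Over 13 of 15 listed leukocyte genes the sum was 34890 to 40618 in the primordial-labelled pair, 3300 to 4227 in the middle pair and 4159 and 11428 on last replicates 1 and 2. Of 12 listed stromal fibroblast genes, 10 were on the array and summed to 880 to 963, 14884 to 22644 and 16082 to 18629 in the same order of stages. For 8 smooth muscle and pericyte genes the sums were 6884 to 7528, 10100 to 11247 and 32315 to 32397, and for 10 endothelial genes 2016 to 2182, 1729 to 2183 and 3991 to 4627. Granulosa genes (11) gave 40705 to 53846, 13453 to 19517 and 59450 to 65584, theca genes (6) gave 6021 to 6390, 3390 to 4699 and 19793 to 22868, and surface epithelium genes (6) gave 479 to 600, 1577 to 1620 and 302 to 348. The 2 platelet genes on the array gave 180 to 196, 158 to 192 and 212 to 240. Of the listed markers, KRT18 of the surface epithelium had a signal of 16 or less on all 6 arrays. In RNA of whole follicles, fewer cells of a type and less RNA per cell cannot be told apart.

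**Figure D1:**
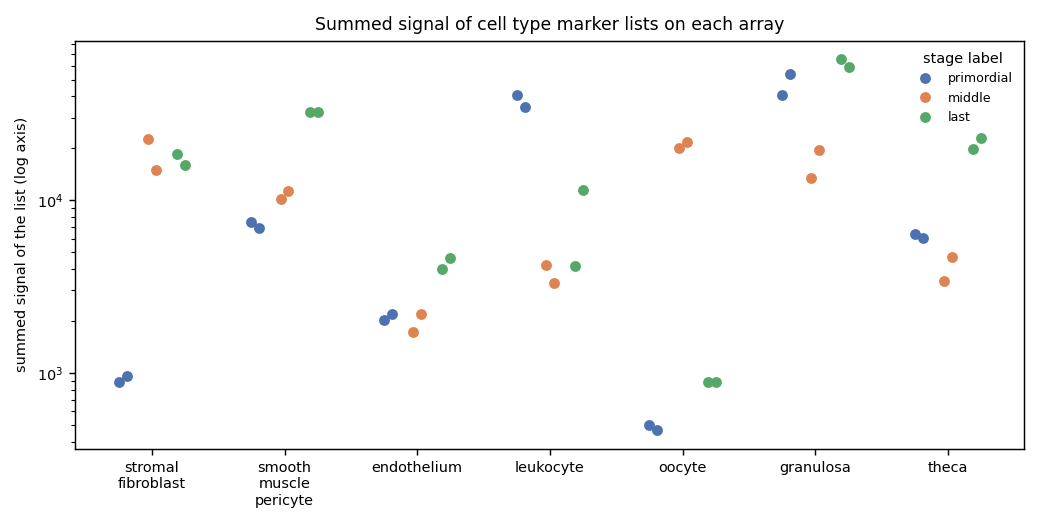
Summed signal (log axis) of the marker genes of 7 cell types, 1 point per array, coloured by the stage in its title. The stromal list lies at 880 to 963 in the primordial-labelled pair and at 14884 or more on the other 4, the leukocyte list is highest in the primordial-labelled pair, and the oocyte list is highest in the middle pair.

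Differences are of log2(signal + 16), given ± the standard error of the model with n = 2 arrays a stage. Folds are 2 to that power, so they come out too small for dim genes. A gene is called where the adjusted p of limma, a linear model fitted to all probe sets, was under 0.05. Of the 35 genes, 16 had a stage difference of some kind by limma's F-test, a share of 45.7% beside 35.7% of all 6765 genes. The largest group of these was ordered primordial, middle, last by mean signal: COL5A1, COL5A3, COL6A2, COL6A3, COL15A1, FBN1, LAMB1 and NID2, which is 8 of 16. Among the 2412 genes of the whole array with a stage difference, 14.7% had that order. For COL4A2, FBLN1, FN1, ITGA5 and ITGB2 the middle pair was lowest, an order found in 36.5% of the 2412 genes. The middle pair was highest for ITGB3, ITGB5 and COL10A1, an order found in 38.0%. For these same 16 genes the orders again counted 8, 5 and 3 after centring arrays on the median and after quantile normalization. The genes were not selected again under those scalings.

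**Figure D2:**
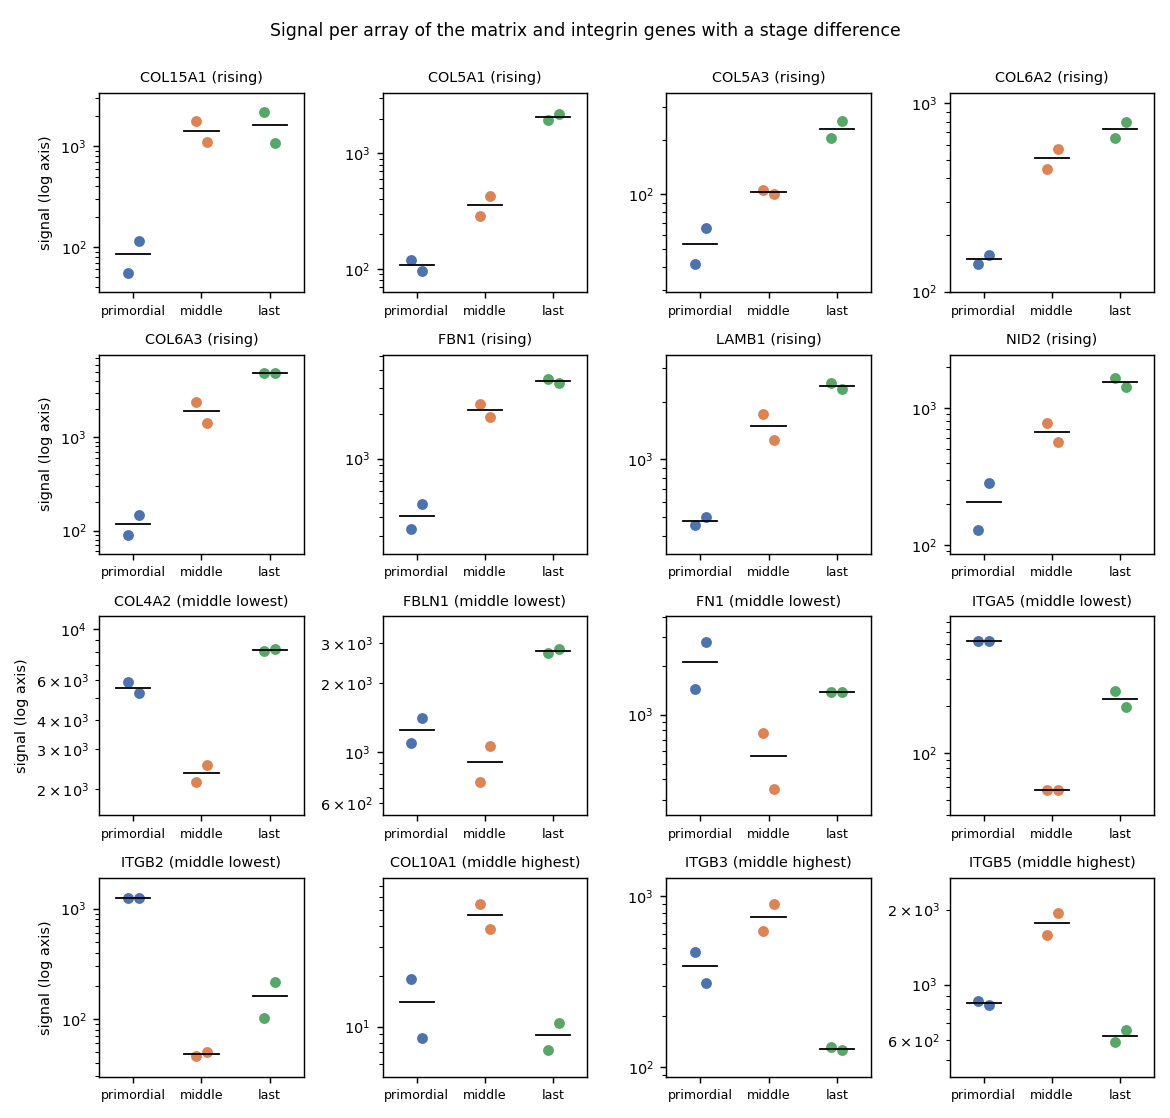
Signal per array (log axis, with its own range in each panel) of the 16 genes with a stage difference by the F-test, by the stage in the title. Points are arrays and bars are means of 2; the first 8 panels rise from the primordial-labelled pair to the last pair, the next 5 are lowest in the middle pair and the final 3 are highest there.

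Set against the primordial-labelled pair, the middle pair had 13 of the 35 genes called (34.4% of all genes), 9 higher and 4 lower, beside 17.8% and 16.6% of all genes. The median difference was 0.59 for the 35 genes and 0.11 for all 6765. With arrays median-centred, which moved the median of all probe sets from 0.24 to -0.17, 8 of the 35 were higher and 8 lower. From middle to last 8 genes were called (10.4% of all genes), 6 higher (5.38%) and 2 lower (5.01%), with a median of 0.50 beside -0.01. That count was 5 in all without middle replicate 1 and 13 with arrays median-centred. Between the primordial-labelled and last pairs 14 genes were called (22.6% of all genes), 10 higher and 4 lower, where 786 of all 6765 genes were higher and 743 lower. The medians were 0.20 and 0.07. Without primordial replicate 1, 8 were called in all. The arrays of 2 stages did not overlap for 26 of the 35 genes in each comparison, beside 70.9%, 54.9% and 63.9% of all genes in the same order. The comparisons share arrays and are not independent of each other.

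**Figure D3:**
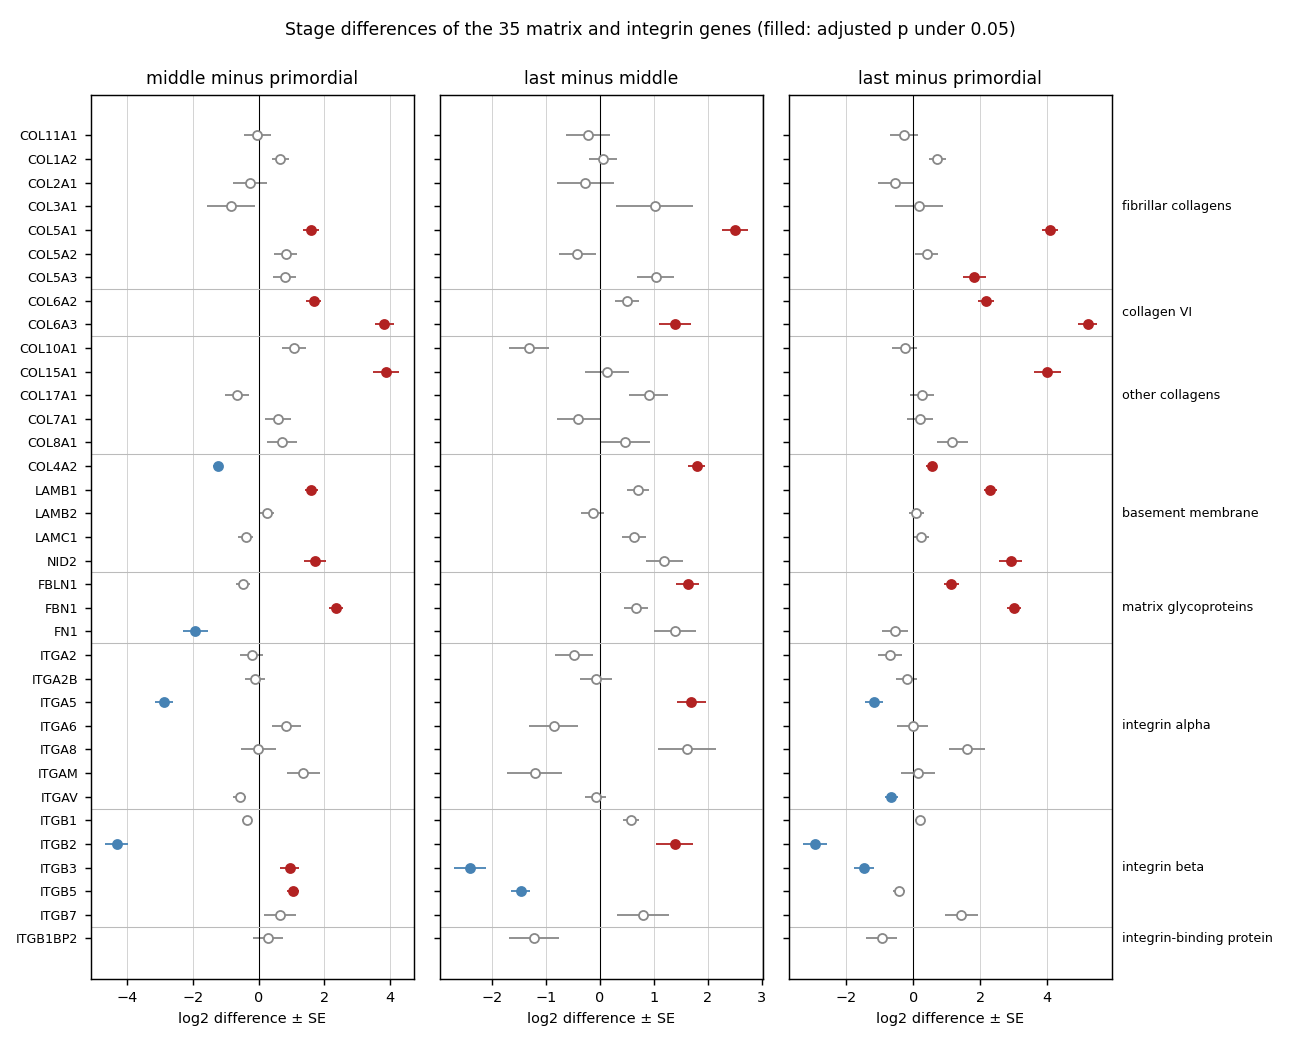
Difference between stages (log2, ± SE of the fit, 2 arrays per stage) for each of the 35 genes, grouped by family. Filled points passed an adjusted p of 0.05 (red higher, blue lower in the later stage) and open points did not; each panel has its own axis.

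The largest difference among the 35 genes was in collagen VI. COL6A3, the large chain of the collagen VI filament, had a signal of 89.7 and 148.0 in the primordial-labelled pair, 2371.7 and 1423.7 in the middle pair, and 4859.3 and 4834.7 in the last pair. No 2 stages overlapped. The middle pair exceeded the primordial-labelled pair by 3.82 ± 0.29, or 14.1-fold (limma adjusted p = 9.95e-05), and the last pair exceeded it by 5.21 ± 0.29, or 36.9-fold (adjusted p = 8.61e-05). The step from middle to last, 1.39 ± 0.29 (adjusted p = 0.0223), lost its call when any array of either stage was left out and without the intensity trend, with adjusted p from 0.0108 to 0.117 over the alternatives run. COL6A2, a smaller chain of the same filament, followed the same order, with 141.1 and 156.1, then 448.7 and 571.7, then 654.7 and 799.8. It was higher by 1.67 ± 0.23 in the middle pair (adjusted p = 0.00139) and by 2.17 ± 0.23 in the last pair (adjusted p = 0.00106) than in the primordial-labelled pair. Its middle and last arrays did not overlap, but the step of 0.50 was not called (adjusted p = 0.236, 95% interval -0.03 to 1.04).

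COL15A1, a collagen of the zone between basement membrane and stroma, stood at 55.9 and 113.8 in the primordial-labelled pair and at 1775.2 and 1095.5 in the middle pair. The difference was 3.87 ± 0.41, or 14.6-fold (limma adjusted p = 0.000382). In the last pair it had 2167.3 and 1082.4, which overlapped the middle pair, and the step between them was 0.13 with a 95% interval of -0.80 to 1.06. The stromal fibroblast markers were likewise higher than in the primordial-labelled pair. Of 10 such genes, 8 were called higher in the middle pair and 9 in the last pair. DCN had a mean of 291, 12620 and 7706 over the stages. From middle to last 2 of the 10 were called higher and 0 lower, and the sums of these pairs overlapped. The part of the stromal markers in the COL6A2, COL6A3 and COL15A1 differences was not tested.

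Of the fibrillar collagens, COL5A1, the regulatory chain that collagen fibrils need to start, rose at each step. Its signal was 119.3 and 95.9 in the primordial-labelled pair, 289.3 and 431.6 in the middle pair, and 1957.5 and 2191.1 in the last pair. The first step was 1.59 ± 0.25 (limma adjusted p = 0.00243) and the second 2.50 ± 0.25 (adjusted p = 0.000957), for 17.0-fold in all. With the mean of its 6 probe sets the steps were 0.91 and 0.37 and neither was called, and the second-brightest probe set gave 1.16 and 1.37, so which step was larger depended on the probe set. COL5A3, another chain of collagen V, had 41.5 and 65.9, then 105.5 and 100.6, then 202.9 and 253.0. It was called in last against primordial only, at 1.82 ± 0.34 (adjusted p = 0.0093). That call ended without primordial replicate 1, without last replicate 2 and with the mean of its probe sets, in a range of 0.00333 to 0.932. Of 8 smooth muscle and pericyte markers, 6 were called higher in the last than in the primordial-labelled pair. In middle minus primordial 4 were higher and 1 lower. ACTA2, smooth muscle actin, had a mean of 3241, 5855 and 18810 over the 3 stages. RGS5 of the same list had a mean of 2390, 2169 and 2570 and was not called in any comparison. The part of these markers in the rise of the collagen V chains was not tested.

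The other fibrillar chains were not called. COL1A2, a chain of collagen I, had 223.1 and 174.2, then 363.4 and 284.2, then 343.1 and 329.1. The middle and last arrays lay above the primordial-labelled pair without overlap. The differences were 0.66 ± 0.26 (limma adjusted p = 0.0878) and 0.72 ± 0.26 (adjusted p = 0.092). The first was called with the mean of its probe sets, at 1.88 (0.00528, in a range up to 0.541), and the second with a 40% filter on dim probe sets (0.048, in a range up to 0.342). COL3A1, the collagen of reticular fibres, varied widely within stages, at 351.7 and 128.0 in the primordial-labelled pair, 149.0 and 83.8 in the middle pair and 101.7 and 550.5 in the last pair. Its last minus middle difference had a 95% interval of -0.65 to 2.67, so these arrays could not resolve even a 2-fold change. COL5A2, which lies next to COL3A1 in the RefSeq gene table of the pig, had 53.2 and 38.3, then 95.7 and 88.6, then 66.6 and 63.1, and its highest difference, 0.82 ± 0.35 in the middle pair, was not called (adjusted p = 0.12). COL2A1 and COL11A1, chains of cartilage collagens, had mean signals of 125 to 226 and 40.4 to 53.8 over the stages, with no call.

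The remaining collagens were dim. COL10A1, COL17A1, COL7A1 and COL8A1 had no array above 100. For COL10A1 the F-test passed at an adjusted p of 0.0496, with 54.4 and 38.6 in the middle pair against 7.2 to 19.4 on the other 4 arrays. No comparison of 2 stages passed for it.

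The basement membrane genes did not move together. COL4A2, a chain of collagen IV, had 5877.6 and 5250.4 in the primordial-labelled pair, 2143.9 and 2550.3 in the middle pair, and 8029.6 and 8219.9 in the last pair. It was lower in the middle pair, at -1.24 ± 0.16 (limma adjusted p = 0.00086), and rose from there to the last pair by 1.79 ± 0.16, or 3.46-fold (adjusted p = 0.000515). The last pair exceeded the primordial-labelled pair by 0.55 ± 0.16 (adjusted p = 0.0464), a result lost in 10 of 16 alternatives, among them each fit with 1 array left out, the replicate block (0.067) and median-centred arrays, in a range of 0.0264 to 0.243. LAMB1, the beta chain of several laminins, took another course, with 456.4 and 498.3, then 1734.5 and 1260.1, then 2491.6 and 2324.9. It was higher than in the primordial-labelled pair by 1.60 ± 0.20 in the middle pair (adjusted p = 0.00075) and by 2.30 ± 0.20 in the last pair (adjusted p = 0.000379). NID2, a nidogen that ties laminin to collagen IV, had 128.2 and 283.8, then 778.6 and 568.6, then 1659.6 and 1433.3. It was higher by 1.71 ± 0.34 in the middle pair (adjusted p = 0.00663; lost at 0.0712 without middle replicate 1, in a range from 0.0026) and by 2.91 ± 0.34 in the last pair (adjusted p = 0.00134).

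From middle to last, LAMB1 and NID2 lay higher without overlap but were not called, at 0.70 ± 0.20 and 1.19 ± 0.34 (limma adjusted p = 0.0654 and 0.0676). Both passed with arrays median-centred (0.0301 and 0.0366), in ranges up to 0.229 and 0.257. LAMB2, the laminin beta chain of many mature basement membranes, had 1778.6 to 1838.3 in the primordial-labelled pair, 1729.7 to 2633.2 in the middle pair and 1759.9 to 2118.1 in the last pair. All 3 stages overlapped, and the 95% interval of last minus primordial was -0.41 to 0.59. LAMC1, the gamma chain shared by most laminins, had 2481.3 to 3520.6, 2192.2 to 2304.4 and 2903.1 to 4162.4. Its last pair exceeded its middle pair by 0.63 ± 0.23, which was not called (adjusted p = 0.134). Endothelial cells also make basement membrane. Of 10 endothelial genes 1 was higher and 1 lower in the middle than in the primordial-labelled pair, and 4 were higher in the last than in the middle pair. CDH5, the cadherin of endothelial junctions, had a mean of 143, 221 and 946 over the stages. PECAM1, another endothelial gene, had a mean of 931, 227 and 808, with called differences of -1.97 ± 0.22 and then 1.77 ± 0.22. The endothelial sums of the primordial-labelled and middle pairs overlapped. The summed signal of the granulosa markers was lowest in the middle pair, as COL4A2 was. Of 11, 5 were lower and 1 higher there than in the primordial-labelled pair. In last minus middle, 6 were higher and 2 lower. NR5A2, a nuclear receptor of granulosa cells, had a mean of 4175, 161 and 10140. AMH and FSHR of the same list were highest in the middle pair, at means of 236, 1367 and 110 and of 283, 312 and 142. The part of endothelial and granulosa cells in the values of COL4A2, LAMB1 and NID2 was not tested.

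The 3 glycoproteins went different ways. FBN1, fibrillin, the backbone of elastic microfibrils, had 331.3 and 488.7, then 2353.7 and 1911.3, then 3481.7 and 3255.3. Its middle pair exceeded the primordial-labelled pair by 2.35 ± 0.22, or 5.10-fold (limma adjusted p = 0.000212), and its last pair by 3.01 ± 0.22, or 8.08-fold (adjusted p = 0.000222). The stromal markers were higher than in the primordial-labelled pair as well, and their part in the FBN1 values was not tested. FBLN1, a fibulin of basement membranes and elastic fibres, had 1100.7 and 1405.6, then 738.5 and 1066.7, then 2705.4 and 2829.4. It rose from middle to last by 1.62 ± 0.22 (adjusted p = 0.0038) and stood 1.14 ± 0.22 above the primordial-labelled pair (adjusted p = 0.00958), a result that no longer passed without primordial replicate 1 (0.0751, in a range from 0.00496). The middle pair was below the primordial-labelled pair without overlap, but the difference of -0.48 was not called (adjusted p = 0.136). With arrays median-centred it was -0.89 and passed (0.017, in a range up to 0.55).

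FN1, fibronectin, a glycoprotein that cells assemble into fibrils through integrins, had 1436.5 and 2798.8 in the primordial-labelled pair, 772.7 and 347.5 in the middle pair, and 1375.7 and 1372.1 in the last pair. It was lower in the middle pair, at -1.92 ± 0.39 (limma adjusted p = 0.00788). The call ended without primordial replicate 2 (0.0613) and without middle replicate 2 (0.0523), and with the mean of its 4 probe sets the difference shrank to -0.21 (0.71, in a range from 0.00248). The other 3 probe sets of FN1 had no array above 51.4. The return from middle to last, 1.38 ± 0.39, was not called (adjusted p = 0.0697). It passed in 3 of 16 alternatives, the filters at 40% and 60% (0.0382 and 0.0378) and median-centred arrays (0.038), and with the mean of probe sets it was 0.26 (0.722).

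The largest difference among the integrins was in ITGB2, the beta chain that occurs on leukocytes. It had 1243.6 and 1247.2 in the primordial-labelled pair, 45.7 and 49.6 in the middle pair, and 102.0 and 217.5 in the last pair. The middle minus primordial difference was -4.31 ± 0.35, a 19.8-fold lower level (limma adjusted p = 0.000136), and the last pair was lower by a factor of 7.60 (adjusted p = 0.00144). Its return from middle to last by 1.38 ± 0.35 (adjusted p = 0.0451) did not hold in 8 of 16 alternatives, among them without last replicate 2 (0.152), without either middle or either primordial-labelled array, and in the fit of the 4 arrays of those stages (0.119), in a range of 0.0187 to 0.214. Leukocyte markers moved with ITGB2: 11 of 13 were lower in the middle pair and 10 of 13 in the last pair, with CD53, a leukocyte tetraspanin, at a mean of 7910, 212 and 462. Last replicate 2 was the higher of the last pair both in ITGB2 and in the leukocyte sum. The part of leukocytes in the ITGB2 values was not tested. ITGAM, an alpha chain that pairs with ITGB2 in macrophages and neutrophils, was dim, with a mean of 15.9, 59.9 and 18.6 over the stages. Its middle pair lay above the primordial-labelled pair without overlap, opposite to ITGB2, but the difference of 1.36 ± 0.51 was not called (adjusted p = 0.0778). A second, dimmer probe set of ITGAM went the other way, at -0.61 ± 0.51, also without overlap and not called. ITGB7, a beta chain of lymphocytes, had no array above 44.8.

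ITGB5 and ITGB3, beta chains that pair with ITGAV in receptors for vitronectin and similar ligands, were highest in the middle pair. ITGB5 had 862.2 and 826.4, then 1586.9 and 1945.9, then 588.4 and 659.6. It was higher in the middle pair than in the primordial-labelled pair by 1.04 ± 0.18 (limma adjusted p = 0.00372) and lower in the last than in the middle pair, at -1.47 ± 0.18 (adjusted p = 0.00267). ITGB3 had 471.1 and 310.2, then 626.9 and 898.6, then 130.3 and 125.9. Its fall from middle to last was -2.41 ± 0.29, a 5.32-fold difference (adjusted p = 0.00228). The last pair was also below the primordial-labelled pair, at -1.47 ± 0.29 (adjusted p = 0.0106), except without primordial replicate 1 (0.0813, in a range from 0.00406). The higher level in the middle pair, 0.94 ± 0.29 (adjusted p = 0.0383), lost its call in 7 of 16 alternatives, among them without either middle array, without primordial replicate 2, with the replicate block (0.0552) and under both other scalings (0.236 and 0.103), in a range from 0.0198. Oocyte markers were highest on the same arrays, and 11 of 11 were lower in the last than in the middle pair. Platelets also carry ITGB3. Of 7 listed platelet genes only GP9 and PPBP were on the array, and neither was called in any comparison. PPBP was dim, at 1.6 to 58.6 over the 6 arrays. The sum of the 6 surface epithelium genes was highest in the middle pair too. Of these 2 were higher in the middle than in the primordial-labelled pair, and 3 were lower in the last than in the middle pair. KRT8, a keratin, had a mean of 111, 715 and 105, while KRT18 and KRT19 had no array above 24.1 and were not called. In last minus primordial 1 of the 6 surface epithelium genes was lower and 0 were higher. It was EPCAM, an epithelial adhesion molecule, at -1.75 ± 0.35 (limma adjusted p = 0.0114). Of the 11 oocyte genes, 4 were higher and 0 lower in that comparison. The part of the oocyte, the surface epithelium and platelets in the ITGB3 and ITGB5 values was not tested.

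ITGAV itself did not share this course. It had 3022.9 and 2228.5, then 1641.3 and 1836.2, then 1556.8 and 1739.9, with the middle and last arrays overlapping. The last pair was lower than the primordial-labelled pair, at -0.65 ± 0.19 (limma adjusted p = 0.0486), a call lost in 11 of 16 alternatives, among them each fit with 1 array left out, the replicate block (0.0698) and quantile normalization, in a range of 0.0199 to 0.267. The middle pair differed by -0.58 ± 0.19 and was not called (adjusted p = 0.0518, passing in 4 of 16 alternatives, in a range of 0.0072 to 0.297). ITGB1, the beta chain of most collagen, laminin and fibronectin receptors, had 8431.7 and 8776.6, then 7200.8 and 6212.4, then 10537.0 and 9315.0. The 3 stages did not overlap, yet neither step was called, at -0.36 ± 0.15 (adjusted p = 0.117) and 0.57 ± 0.15 (adjusted p = 0.0605). With arrays median-centred both passed (0.00758 and 0.024), in ranges up to 0.948 and 0.324.

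ITGA5, which pairs with ITGB1 to form the classical fibronectin receptor, had 522.9 and 521.8 in the primordial-labelled pair, 57.7 and 57.8 in the middle pair, and 249.3 and 197.0 in the last pair. The middle pair was lower than the primordial-labelled pair, at -2.87 ± 0.27, a 7.30-fold difference (limma adjusted p = 0.000236). From middle to last it rose by 1.69 ± 0.27 (adjusted p = 0.00821), except without middle replicate 1 (0.0658) and with the mean of its probe sets (0.07), in a range from 0.00227. The last pair stayed below the primordial-labelled pair, at -1.18 ± 0.27 (adjusted p = 0.0206), a result that no longer passed without either primordial-labelled array, without last replicate 2 and with the mean of probe sets, in a range of 0.0073 to 0.889. FN1, its ligand, was likewise lowest in the middle pair. By the means of the stages the leukocyte and granulosa sums were both lowest there as well. From middle to last 1 of 13 leukocyte genes and 6 of 11 granulosa genes were higher. Their part in the ITGA5 and FN1 values was not tested.

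The other alpha chains had no call. ITGA8, a chain of mesenchymal and smooth muscle cells, had 33.4 and 24.2, then 10.4 and 58.6, then 96.3 and 148.5. Its last pair lay above the other 4 arrays, but neither difference passed (limma adjusted p = 0.103 against middle and 0.0729 against primordial), whereas a second, dimmer probe set of ITGA8 was called in last minus primordial at 2.22 ± 0.41 (adjusted p = 0.00856). ITGA2B, the platelet chain, had 125.9 to 167.2 over the 6 arrays. ITGA6, a laminin receptor chain, had no array above 40.9, and ITGA2, a collagen receptor chain, none above 23.1. ITGB1BP2 had 58.1 to 69.6, 74.9 to 88.0 and 11.4 to 46.7 and was not called.

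Of the 35 genes, 16 were called in at least 1 of the 3 comparisons and 19 were not, beside 40.8% of all genes called in at least 1. All 16 were among the 23 genes with a mean signal of at least 91.3, below which 40% of probe sets lay. The other 12 were dim, and of these COL10A1 alone passed the F-test. At such levels the model resolves little, as for ITGA6, where the 95% interval of middle minus primordial ran from -0.18 to 1.87.

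Several genes had more than 1 probe set, and these did not always give the same call. For FBN1 both probe sets were called higher in the middle and last arrays than in the primordial-labelled pair, and for LAMB1 both were in the last pair. COL5A1 had 6 probe sets: the 2 brightest rose at both steps. The dimmest, at 39.5 and 72.1 in the middle pair and 4.3 or less elsewhere, was called higher in the middle pair and lower in the last pair. With the mean over the 6 probe sets COL5A1 lost its calls in middle minus primordial (0.91, limma adjusted p = 0.0793, in a range from 0.000855) and in last minus middle (0.37, adjusted p = 0.562, in a range from 0.000251). The second probe set of COL1A2 had 3.9 and 58.2 in the primordial-labelled pair, 400.2 and 247.3 in the middle pair and 79.7 and 57.2 in the last pair. It was called higher in the middle pair by 3.11 ± 0.60 (adjusted p = 0.00602), where the brightest one was not. Which of these sequences measures the gene better cannot be read from the values.

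**Figure D4:**
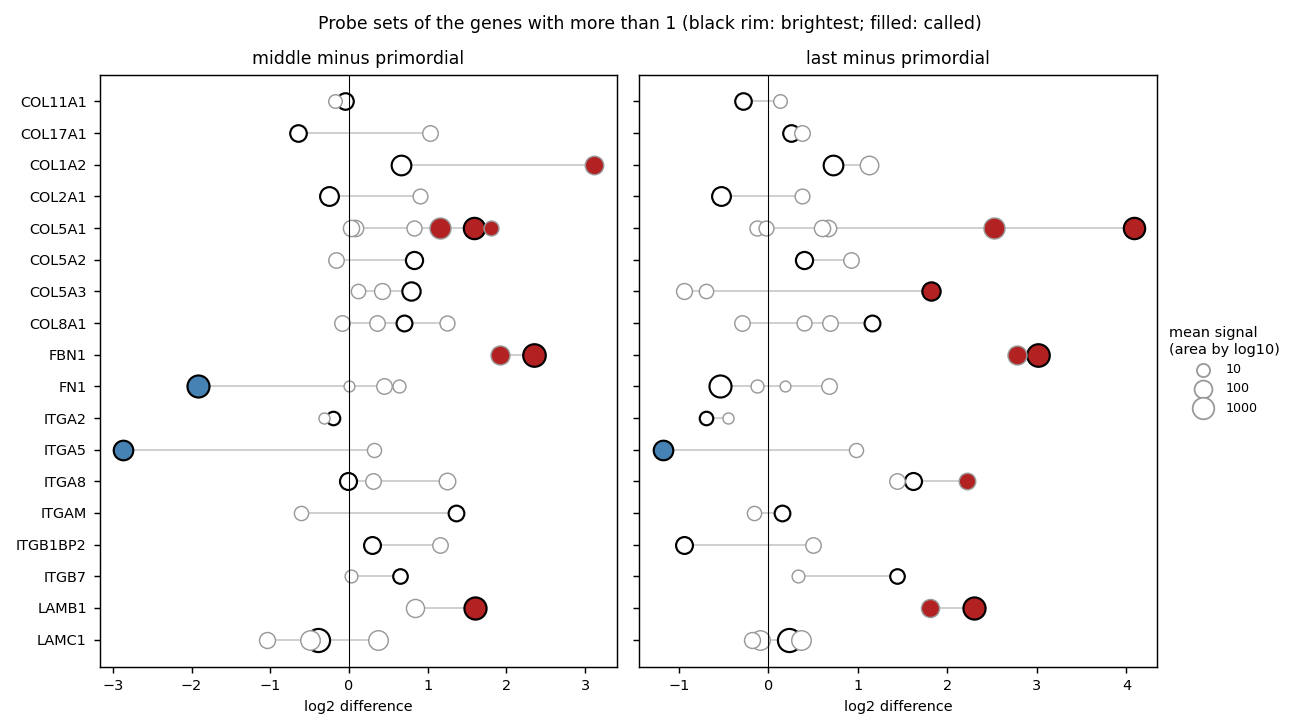
Log2 difference of each probe set for the 18 genes with more than 1, in middle minus primordial and in last minus primordial; area grows with the log10 of the mean signal. A black rim marks the brightest probe set, which stands for the gene elsewhere, and fill marks a call (red higher, blue lower). In middle minus primordial the probe sets of FBN1 lie close together, while those of COL1A2, FN1 and ITGA5 lie apart.

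The array measured 15 genes for enzymes, chaperones and binding proteins that process collagen. In middle minus primordial 3 were higher and 1 lower, beside 17.8% and 16.6% of all genes. In last minus middle 4 were higher, beside 5.38%. In last minus primordial 5 were called, all higher, where 22.6% of all genes were called in either direction, and the other 10 were not called. SPARC, a collagen-binding glycoprotein, rose by 1.03 ± 0.15 and then by 0.67 ± 0.15 (limma adjusted p = 0.00155 and 0.0294). LOXL1, an enzyme that cross-links collagen and elastin, rose by 1.11 ± 0.34 and 1.64 ± 0.34 (adjusted p = 0.0406 and 0.0237), and FKBP14, a prolyl isomerase of the endoplasmic reticulum, by 1.38 ± 0.20 at the first step (adjusted p = 0.00174). FKBP10, of the same enzyme family, rose at the second step by 0.93 ± 0.19 (adjusted p = 0.0213). PLOD3, a lysyl hydroxylase, was lower in the middle pair, at -1.17 ± 0.22 (adjusted p = 0.00538). The median difference of the 15 genes was -0.22, 0.48 and 0.28 in middle minus primordial, last minus middle and last minus primordial, beside 0.11, -0.01 and 0.07 for all genes.

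Of 9 other matrix glycoproteins, 2 were higher and 1 lower in the middle pair than in the primordial-labelled pair, shares near the 17.8% and 16.6% of all genes. EFEMP2, a fibulin needed for elastic fibres, was higher by 1.97 ± 0.22 in the middle pair and by 2.83 ± 0.22 in the last pair than in the primordial-labelled pair (limma adjusted p = 0.00051 and 0.000291). TNXB, a tenascin, was higher in the middle pair by 1.45 ± 0.28 (adjusted p = 0.0064), and EMILIN2 was lower, at -2.93 ± 0.32 (adjusted p = 0.00044). Among 13 genes of the adhesion complexes that integrins assemble, 2 were higher and 5 lower in the middle pair than in the primordial-labelled pair (all genes 17.8% and 16.6%). In last minus middle 2 were higher, beside 5.38% of all genes. In last minus primordial 3 were higher, where 786 of all 6765 genes were higher. FLNA, an actin cross-linker that binds integrin tails, and the tetraspanins CD9 and CD81, which associate with integrins, were lower in the middle pair, at -1.41 ± 0.19, -1.44 ± 0.16 and -1.35 ± 0.21. From middle to last FLNA and CD9 were higher again, by 0.78 ± 0.19 and 0.89 ± 0.16 (limma adjusted p = 0.039 and 0.0136). CAV1, caveolin, was higher in the middle pair than in the primordial-labelled pair by 2.89 ± 0.45 (limma adjusted p = 0.00233). Its step from middle to last, 0.61 ± 0.45, was not called. In the last pair CAV1 was higher than in the primordial-labelled pair by 3.50 ± 0.45, LIMS2, an adaptor of focal adhesions, by 2.57 ± 0.52 and PARVA, its partner in that complex, by 0.93 ± 0.20.

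Among the 9 other matrix receptors on the array, SDC1, SDC2 and CD47 were lower in the middle pair than in the primordial-labelled pair, beside 16.6% of all genes. The same 3 were higher again in the last than in the middle pair, beside 5.38% of all genes. The syndecan SDC2, a heparan sulfate proteoglycan of the cell surface, differed by -1.55 ± 0.17 and then by 1.68 ± 0.17 (limma adjusted p = 0.000484 and 0.00102). CD47, an integrin-associated protein, differed by -1.32 ± 0.17 and 0.95 ± 0.17, and SDC1 by -1.76 ± 0.34 and 1.47 ± 0.34.

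The stages also differed in signs of RNA quality. For actin, the probe set at the 3′ end read above the one at the 5′ end by 3.21 to 3.56 (log2) in the primordial-labelled pair, 4.21 to 4.98 in the middle pair and 3.57 to 3.90 in the last pair. For the GAPDH control the excess was 2.69 to 3.43, 2.79 to 3.29 and 1.86 to 1.90. For the EF1A control the excess was smaller, at 0.67 to 1.02, 0.87 to 1.34 and 0.70 to 0.83, and the primordial-labelled pair overlapped both other pairs. The part of RNA quality in the differences above was not tested.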

How the data were processed

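Porcine follicle RNA was hybridised to 6 single-channel Affymetrix arrays. Per the labels' protocols, RNA was extracted with Trizol and cRNA was biotinylated. The values came from GCOS, per the submitters' processing notes (version and settings: not given in the sources used here). Each probe set has a deposited intensity on a linear scale. The authors had scaled each array, since the mean without the lowest and highest 2% was 500.1 on all 6. No detection calls were used.

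Of 24123 probe sets, 124 controls were left out. The other 23999 have 1 symbol (10069), several (198) or none (13732). All 35 genes matched the RefSeq gene table by identifier. Annotation symbols can be old.

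Values were analysed as log2(signal + 16) with limma 3.58.1 in R 4.3.3 (lmFit, eBayes with an intensity trend), with 1 model for all 6 arrays, no replicate block, two-sided tests and Benjamini-Hochberg adjustment over 23999 probe sets. Residual and prior degrees of freedom were 3 and 5.28. No filter was applied, so that every gene had a test; 23 of 35 would pass a 40% filter. Tables and figures used Python 3.11.15, pandas 2.3.3, numpy 2.4.6 and matplotlib 3.10.9. The fit was tested on simulated data. Alternatives covered the filter, pseudocount, scaling, block, trend, probe set rule, arrays fitted and each array left out.

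Members may all be named; per-array values are given for the 10 largest called differences per direction and for genes listed by name, and pathway examples are those with the smallest p. The members and lists were chosen with earlier results of these data known.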

Additional observations from a re-analysis of the deposited data

How the results depend on the processing

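Of the 35 called differences, 21 kept their direction and call under every alternative run for them and 14 lost the call under at least 1; over 556 combinations of difference and alternative, 498 kept the call, 58 lost it and 0 changed sign. Counts of called genes moved by more than 1.5 times in 3 cases. From middle to last, 13 were called with each array centred on its median, against 8. Leaving out 1 array at a time gave 5 to 8 there, 11 to 14 in middle minus primordial, 8 to 14 in last minus primordial and 14 to 16 for the F-test. The lowest of these came without middle replicate 1, without either middle array, without primordial replicate 1 and without either array labelled primordial. With 4 arrays or 5, fewer samples enter the fit; for the other alternatives the cause was not tested. Replicate numbers are shared between stages, but the correlation of replicate differences between stages was 0.004 to 0.031 over probe sets, so the numbers were not taken as pairs. With the replicate block 12, 8 and 12 genes were called in the 3 comparisons and 15 by the F-test, against 13, 8, 14 and 16. A lone array of a stage was assumed to vary like the other stages. Signals of 16 or less, 12.8% to 18.0% of probe sets per array, limit what can be said of dim genes.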
